A study of Mus musculus with 12 samples.

Results

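The effect of the MYST acetyltransferase inhibitor WM-8014 on mouse embryonic fibroblasts was measured after 2 lengths of treatment, and the change of that effect with time is described here. For each gene the difference between WM-8014 and its inactive control compound WM-2474 at 96 h was subtracted from the same difference at 240 h. The result is called the interaction and is given on the log2 scale: a value above 0 means that WM-8014 cultures stood higher, relative to WM-2474 cultures, at 240 h than at 96 h. All 12 of the 12 libraries of the series enter this contrast, so no sample was selected. The fibroblasts came from wild type C57BL/6 embryos of day 13.5, were grown in 3% oxygen, and formed 4 groups of 3 cultures each: 10 µM WM-2474 for 96 h, 10 µM WM-8014 for 96 h, 10 µM WM-2474 for 240 h and 10 µM WM-8014 for 240 h. Cultures are numbered 5, 6 and 7 in every group, both compounds were given at the same dose, and there is no untreated group, so a change with time within 1 compound mixes time in culture with time under the compound. The labels number the cultures without saying whether a number stands for 1 embryo, so the spread between cultures may be partly technical.

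KAT6A and KAT6B belong to the MYST family of histone acetyltransferases. They work in complexes with BRPF scaffold proteins and keep developmental genes, Hox genes among them, expressed. In fibroblasts, loss of KAT6A is known to raise the products of the Cdkn2a locus, which hold cells out of division, and to bring on senescence, a lasting arrest with an altered set of secreted and structural proteins. Primary fibroblasts also slow down and enter senescence with time in culture, so a control of the same age is needed to see what an inhibitor adds.

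The libraries held 10147466 to 45903190 counted reads, and the 20 genes with most reads took 8.59% to 12.9% of them. Levels are given in CPM (the usual scaled count unit), read counts relative to library totals that were scaled to each other. The labels give the sex as female, yet Ddx3y, a gene of the Y chromosome, stood at 96.3 to 124 CPM and Xist, the RNA that coats the inactive X chromosome, had 0 to 4 reads in all 12 libraries. The WM-2474 libraries of cultures 6 and 7 at 96 h stood apart in 4 genes. Their Misp3 levels were 0.724 and 0.943 CPM, while every further library had between 79.9 and 285 CPM. The same pair of libraries was lowest for Stag3, Ntn3 and Lrrn2. None of these 4 genes passed the test of the interaction. Every named result was also computed without these 2 libraries, which leaves 1 culture in that group. The 15 fibroblast markers summed to 33400 to 58500 CPM. Markers of leukocytes, epithelium and blood summed to at most 29.2 CPM in any library. Leukocyte markers were higher with WM-8014 at both times. They were at 18.7 to 19.8 against 11.9 to 13.6 CPM at 96 h and at 19.9 to 23.1 against 8.81 to 11 CPM at 240 h. None of the 5 tested passed the main edgeR test of the interaction, and 1 passed it with a block for the culture number. Mesothelial markers summed to 6.54 to 62.8 CPM, cartilage and bone markers to 293 to 539 CPM and endothelial markers to 32.6 to 102 CPM, with 1 endothelial gene, Cldn5, at 0 reads.

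Of 14136 genes tested, 1510 (10.7%) passed the test of the interaction (edgeR quasi-likelihood test, Benjamini-Hochberg adjusted p under 0.05; below, adjusted p always means this test). The interaction was above 0 for 728 of them (5.15% of genes tested) and below 0 for 782 (5.53%), and over all genes its median was -0.0042. The median size was 0.35 among the genes called higher and the median was -0.48 among those called lower, so most shifts were well under 2-fold: 53 genes were called with at least a 2-fold higher and 86 with at least a 2-fold lower interaction. In 1502 of the 1510 genes the interaction had 1 sign in all 3 cultures, with libraries matched by culture number. The genes were called from these same cultures, so this count describes them and is no further support. The median standard error (SE) of the interaction was 0.11, or 0.082 for genes of at least 10 CPM and 0.53 for genes under 1 CPM, so small shifts could be seen only in well expressed genes.

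The called genes were sorted by the inhibitor effect at each time in the same fit, which is a description and not a further test. The effect grew in 1308 genes (9.25% of genes tested), meaning that it was called at 240 h and larger there than at 96 h: 710 grew downward (5.02%) and 598 upward (4.23%). It shrank in 121 genes (0.856%), which were called at 96 h and had a smaller value at 240 h: 72 were lower at 96 h (0.509%) and 49 higher (0.347%). It reversed in 62 genes (0.439%), which were called at both times with opposite signs. The other 19 called genes met none of these definitions. Among the genes that grew downward the median effect of WM-8014 went from -0.17 at 96 h to -0.65 at 240 h on the log2 scale, and 343 of the 710 were already called lower at 96 h. Among those that grew upward the median went from 0.078 to 0.43, and 183 of the 598 were already called higher at 96 h. For 185 of the upward and 131 of the downward genes the 96 h value, which was not called, had the opposite sign.

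**Figure D1:**
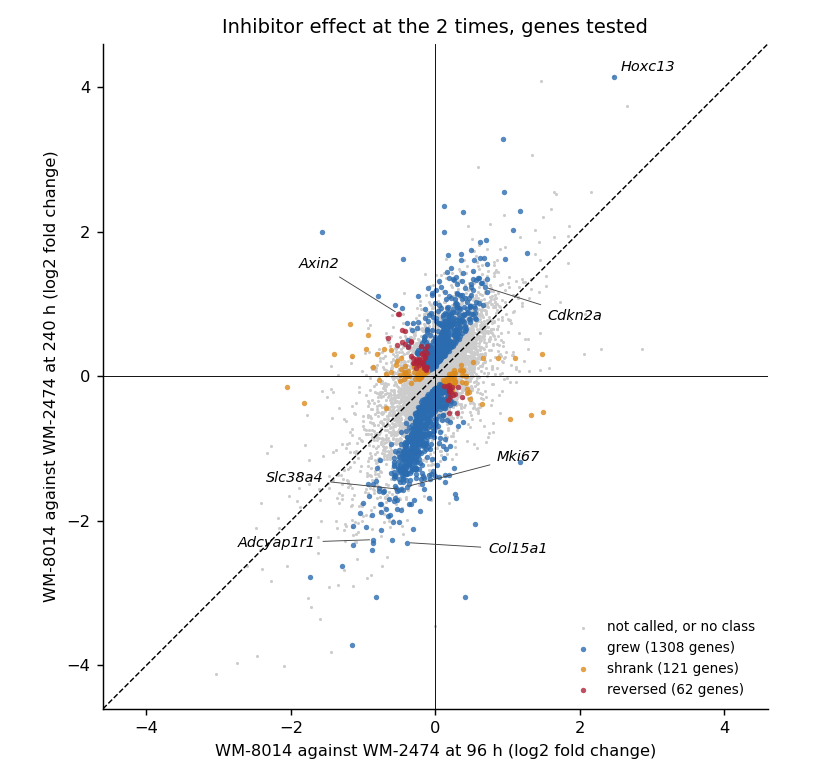
Inhibitor effect on each gene tested, as log2 fold change of WM-8014 against WM-2474 at 96 h (horizontal axis) and at 240 h (vertical axis); colours mark the genes called in the interaction by class, the dashed line marks equal effects and 1 gene lies outside the axes. The 1308 genes that grew lie farther from 0 on the vertical than on the horizontal axis, and the 62 that reversed lie at the upper left and lower right.

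The same interaction can come from either compound's course in time. For 831 of the 1510 genes (55%) the level changed from 96 h to 240 h with both compounds in 1 direction and by unequal amounts. For 449 genes (29.7%) the change with time was called with WM-8014 and not with WM-2474, and for 160 (10.6%) with WM-2474 and not with WM-8014. In 67 genes (4.44%) the 2 courses were called in opposite directions, and in 3 neither was called. A call in 1 compound and not in the other is a sorting of the calls, since only the interaction tests the difference.

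Genes of 41 pathway lists and 11 lists of cell type markers were then read against the share called among all genes. That share was 5.15% higher and 5.53% lower, or 10.7% in all. The 2 lists on cell division had the largest shares called lower. G2 and mitosis genes were called lower for 52 of 57 tested, none was called higher, and their median interaction was -0.76 against -0.0042 over all genes. S phase and DNA replication genes were called lower for 35 of 55, with a median of -0.50. Contractile genes were called higher for 9 of 21 and p53 targets for 10 of 29. Calls of the main fit were also in 1 direction for YAP and TEAD targets (6 of 20 higher) and the TGF-beta and BMP pathways (8 of 42 higher). The same held for AP-1 and immediate early genes (5 of 25 higher) and ATF4 targets (8 of 27 lower). With a block for the culture number 1 gene of the AP-1 list was called lower and 1 ATF4 target higher. With 1 library or culture left out, up to 1 gene was called the other way in the TGF-beta and BMP, AP-1 and ATF4 lists. Calls in 1 direction, at shares nearer that of all genes, were also seen for lysosome genes (5 of 42 higher). Ribosome biogenesis genes (5 of 36 lower) and interferon-stimulated genes (3 of 28 lower) were of this kind, as were a few lists with fewer calls. In most other lists some genes were called each way.

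**Figure D2:**
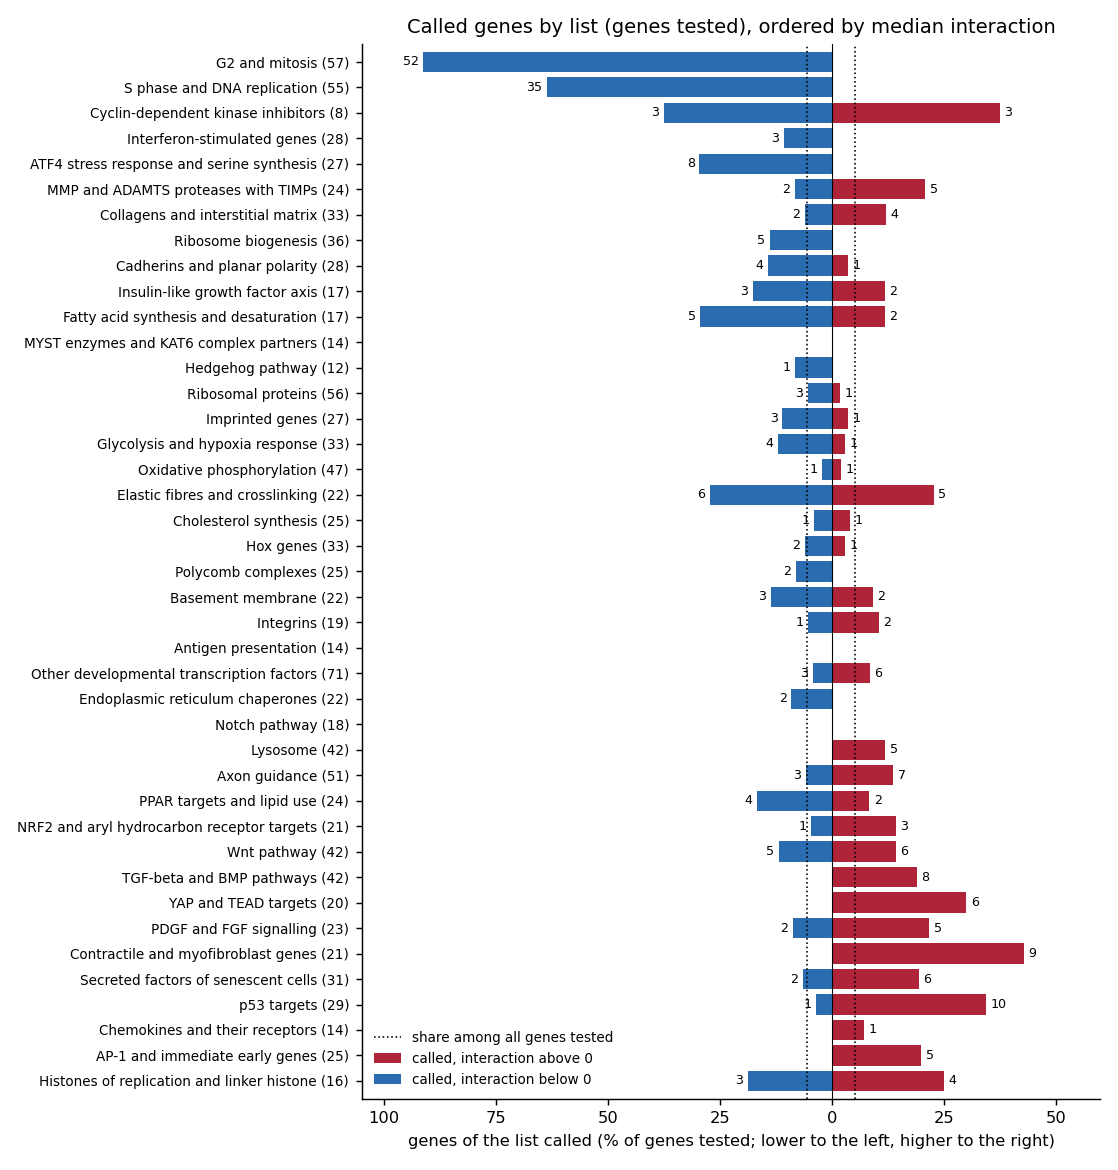
Share of each list's tested genes that were called in the interaction, lower to the left and higher to the right, with the number called at the end of each bar and the number tested after the name; dotted lines mark the shares among all genes tested, 5.53% lower and 5.15% higher. The 2 cell division lists reach 91.2% and 63.6% called, all of it to the lower side.

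Genes of cell division were lower with WM-8014 at 96 h, and the gap to the control widened by 240 h: the median effect on the G2 and mitosis list went from -0.38 to -1.13 and that on the S phase list from -0.26 to -0.74. Mki67 (chr7:135689784-135716450), which codes for the proliferation antigen Ki-67, stood at 267, 242.9 and 266 CPM with WM-2474 and at 184, 202 and 204 CPM with WM-8014 in cultures 5, 6 and 7 at 96 h. At 240 h it stood at 165, 176 and 161 CPM with WM-2474 and at 57.4, 62.2 and 54.1 CPM with WM-8014. The level thus fell with time under both compounds, the 4 groups did not overlap, and the WM-8014 cultures at 240 h were lowest. The inhibitor effect went from -0.40 to -1.53, an interaction of -1.13 (SE 0.078, adjusted p = 2.06e-07). In bulk RNA, fewer dividing cells and less of the transcript per cell cannot be told apart.

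The kinases and cyclins that drive mitosis moved in parallel. Plk1, a kinase of mitotic entry and spindle function, was at 77.5, 72.5 and 72.3 CPM with WM-2474 and 52.2, 56.3 and 53.8 CPM with WM-8014 at 96 h, and at 51.3, 54.4 and 57.4 CPM against 19.8, 23.4 and 20.4 CPM at 240 h. Its interaction was -0.89 (SE 0.084, adjusted p = 1.22e-06), and all 3 cultures treated with WM-8014 for 240 h lay below every other library. Aurkb, the kinase of the chromosomal passenger complex, had an interaction of -0.94 (SE 0.10). Cdk1, the kinase that cyclin B activates, had a smaller one of -0.51 (SE 0.096), with 78.6, 74.1 and 81.9 against 61.7, 62.3 and 58.5 CPM at 96 h and 49.7, 53.5 and 56.4 against 26.3, 32.2 and 26.4 CPM at 240 h. Ccna2 (cyclin A2) and Ccnb1 (cyclin B1) lay between, at -0.89 (SE 0.12) and -0.83 (SE 0.13). The adjusted p of Aurkb, Cdk1, Ccna2 and Ccnb1 was at most 0.0016.

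Kinetochore, checkpoint and chromosome structure genes followed. Cenpf, a kinetochore protein, was at 64.0, 65.7 and 66.7 against 48.4, 52.8 and 54.8 CPM at 96 h and at 40.8, 41.4 and 40.2 against 16.9, 17.4 and 14.9 CPM at 240 h (interaction -0.97, SE 0.083, adjusted p = 3.33e-07). Bub1b, the spindle checkpoint kinase BubR1, had an interaction of -1.001 (SE 0.093, adjusted p = 1.2e-06). Top2a, the topoisomerase that untangles replicated chromosomes, went from -0.40 at 96 h to -1.32 at 240 h (interaction -0.92, SE 0.081, adjusted p = 3.07e-06). Tmpo, which codes for lamina-associated polypeptides of the inner nuclear membrane, was at 53.2, 57.8 and 52.0 CPM in the WM-8014 cultures at 240 h against 122, 123 and 128 CPM in the controls, and its interaction was -0.83 (SE 0.066, adjusted p = 1.92e-07). In these 4 genes the groups of the 2 compounds did not overlap at either time. All 4 were called at both times in the same fit, so this describes them and is no further support.

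The promoters of these mitotic genes are shown because their members moved together: cell cycle genes of this phase are known to be controlled through CCAAT boxes, bound by NF-Y, and through the cell cycle genes homology region, whose core is TTTGAA, bound by the DREAM and MuvB complexes. The sequences are RefSeq promoters of the build GRCm38.p6, 250 bases before to 50 bases after the gene start, written 5′ to 3′ along the gene; capitals mark CCAAT and TTTGAA, or the same letters on the other strand (ATTGG and TTCAAA). Plk1 lies at chr7:122159185-122159484 on the plus strand, Cenpf at chr1:189688037-189688336 on the minus strand and Bub1b at chr2:118597961-118598260 on the plus strand. They were chosen as 3 called genes whose promoters hold both motifs.
Plk1 promoter: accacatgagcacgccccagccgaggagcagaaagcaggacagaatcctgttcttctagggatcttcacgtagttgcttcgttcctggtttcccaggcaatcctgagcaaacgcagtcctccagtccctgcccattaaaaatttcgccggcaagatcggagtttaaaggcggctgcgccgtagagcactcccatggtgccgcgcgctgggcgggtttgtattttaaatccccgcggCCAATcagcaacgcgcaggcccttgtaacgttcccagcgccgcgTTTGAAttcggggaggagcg
Cenpf promoter: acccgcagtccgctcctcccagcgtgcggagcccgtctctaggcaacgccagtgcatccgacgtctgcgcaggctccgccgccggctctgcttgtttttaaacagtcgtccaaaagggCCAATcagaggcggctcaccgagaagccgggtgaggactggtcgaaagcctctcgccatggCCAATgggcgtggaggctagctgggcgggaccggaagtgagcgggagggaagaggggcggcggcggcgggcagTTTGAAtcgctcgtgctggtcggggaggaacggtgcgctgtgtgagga
Bub1b promoter: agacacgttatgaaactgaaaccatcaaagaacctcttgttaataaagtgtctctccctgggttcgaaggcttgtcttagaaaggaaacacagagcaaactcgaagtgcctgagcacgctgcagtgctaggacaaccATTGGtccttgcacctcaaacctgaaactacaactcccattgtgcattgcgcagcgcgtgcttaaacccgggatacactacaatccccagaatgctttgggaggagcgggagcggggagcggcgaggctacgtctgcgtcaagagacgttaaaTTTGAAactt
Of the 52 G2 and mitosis genes called lower, 43 had at least 1 of 45 promoters in the RefSeq table. CCAAT, on either strand, stood in 77.8% of these promoters against 37.8% of 13638 promoters of tested genes. TTTGAA stood in 73.3% against 12%. In promoters of all genes called lower the shares of CCAAT and TTTGAA were 44.7% and 20.4%. As 52 of the 57 listed mitosis genes were called lower, the higher shares describe that list and not the interaction alone. In the promoters of the S phase genes called lower the shares were 48.6% and 20%, and TTTGGCGC, a form of the E2F site, stood in 17.1% against 0.902% of promoters of tested genes. The 2 motifs printed do not share letters with each other. The motifs were picked after the expression values were known, and a match is a description of the letters and not of binding.

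DNA replication genes gave the same picture with smaller values. Mcm5, a subunit of the replicative helicase, was at 59.3, 57.7 and 59.1 against 45, 47.1 and 39.4 CPM at 96 h and at 42.7, 44.9 and 46.2 against 18.7, 19.99 and 15.1 CPM at 240 h, in the order WM-2474 then WM-8014. Its interaction was -0.88 (SE 0.11, adjusted p = 3.66e-05). Uhrf1, which brings the maintenance DNA methyltransferase to replicated DNA, had an interaction of -1.06 (SE 0.11), Prim1, the DNA primase subunit, of -1.09 (SE 0.15) and Dnmt1, the maintenance methyltransferase itself, of -0.48 (SE 0.055), each with an adjusted p of at most 4.58e-05. Of the 35 replication genes called lower, 34 were of the class that grew downward. The exception was Dut, the enzyme that keeps uracil out of DNA, which was higher with WM-8014 at 96 h (55.2, 57.7 and 55.3 against 48.2, 54.0 and 47.9 CPM) and lower at 240 h (34.4, 31.9 and 29.3 against 38.8, 39.8 and 40.9 CPM). Its interaction was -0.50 (SE 0.082, adjusted p = 0.000296).

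When 1 library or 1 culture was left out, 46 to 52 mitosis genes and 22 to 36 replication genes were called lower; the count of 22 came without culture 7. Without the WM-2474 libraries of cultures 6 and 7 at 96 h the counts were 44 and 22.

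Cyclin-dependent kinase inhibitors split by direction: of 8 tested, 3 were called higher and 3 lower (75% in all, against 10.7% of all genes). The 3 called higher were Cdkn2a, Cdkn2b and Cdkn1a. Cdkn2a (chr4:89274473-89294619), whose reads cannot be divided here between its products p16 and p19, stood at 82.2, 97.1 and 84.0 CPM with WM-2474 and 146, 144 and 132 CPM with WM-8014 at 96 h, and at 159, 156 and 166 CPM against 371, 365 and 397 CPM at 240 h. Every WM-8014 culture at 96 h thus lay below the 240 h controls, and the 240 h WM-8014 cultures were highest. The effect grew from 0.68 to 1.24, an interaction of 0.55 (SE 0.078, adjusted p = 0.000173). Cdkn2b, the neighbour of Cdkn2a on chromosome 4 that codes for p15, was itself at 93.8, 104 and 95.7 against 113, 121 and 112 CPM at 96 h and at 110, 114 and 114 against 202, 193 and 196 CPM at 240 h. Its rise with time under WM-2474 was small next to that under WM-8014, 0.21 against 0.77 on the log2 scale, and its interaction was 0.56 (SE 0.059, adjusted p = 3.12e-06). Cdkn1a, the p53 target p21, rose with time under both compounds, from 383, 401 and 389 to 684, 685 and 684 CPM with WM-2474 and from 416, 427 and 425 to 853, 856 and 947 CPM with WM-8014. Its interaction was 0.26 (SE 0.053, adjusted p = 0.00242).

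The 3 inhibitors called lower were Cdkn2c (p18), Cdkn1b (p27) and Cdkn3, a phosphatase that acts on CDK1 and CDK2. Cdkn2c was at 11.9, 11.7 and 10.7 against 10.3, 9.003 and 9.67 CPM at 96 h, a difference that was not called, and at 8.09, 9.12 and 9.56 against 3.43, 3.84 and 3.58 CPM at 240 h (interaction -1.06, SE 0.15, adjusted p = 8.03e-05). Cdkn1b had an interaction of -0.45 (SE 0.096) and Cdkn3 of -0.81 (SE 0.19). So the INK4 family split: Cdkn2a and Cdkn2b had interactions above 0, and Cdkn2c had one below 0. Over the alternatives the adjusted p of Cdkn1a reached 0.0792 without the 2 WM-2474 libraries of 96 h named above, that of Cdkn1b 0.0519 without culture 6, and that of Cdkn3 0.148 without culture 7 and 0.0762 without the 2 libraries.

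**Figure D3:**
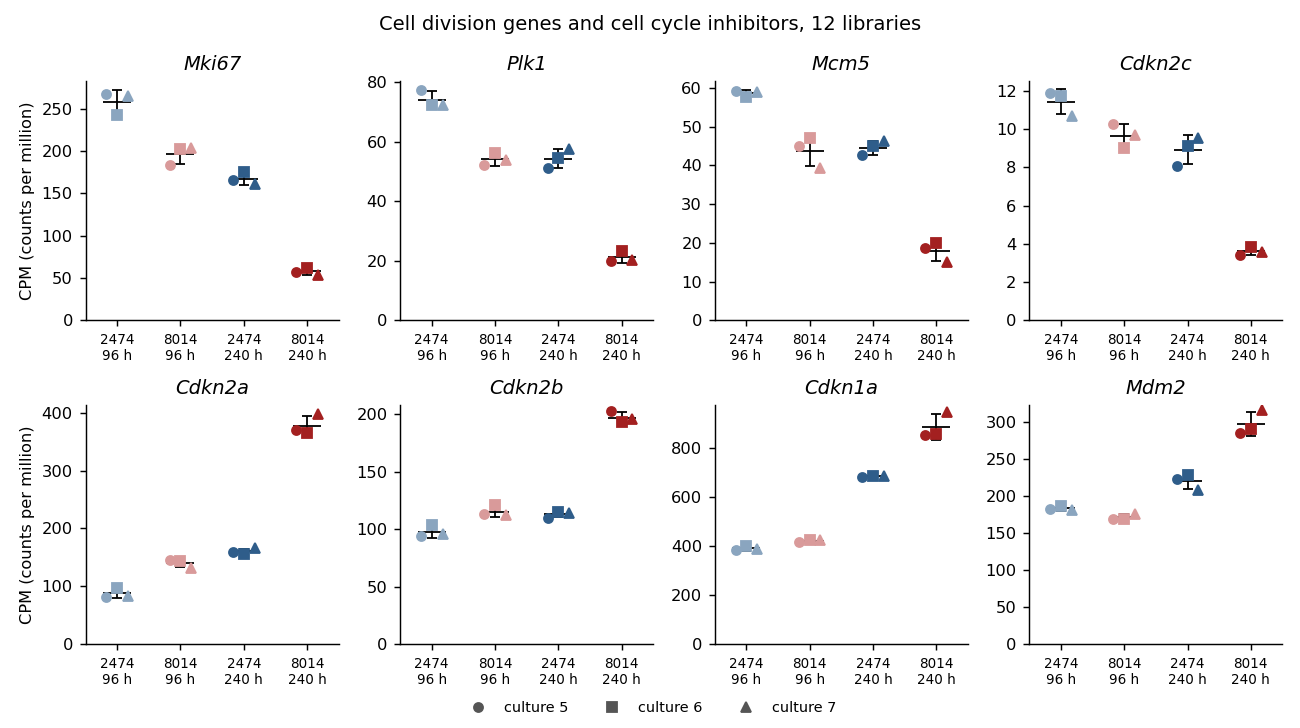
CPM of 8 genes in the 12 libraries, with 1 symbol per culture, a bar at the group mean and whiskers of 1 SD (3 cultures). Mki67, Plk1, Mcm5 and Cdkn2c are lowest and Cdkn2a, Cdkn2b, Cdkn1a and Mdm2 highest in the WM-8014 cultures at 240 h, while the groups at 96 h lie closer together.

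Targets of p53, the transcription factor of the DNA damage response, were called higher for 10 of 29 and lower for 1, against 5.15% and 5.53% of all genes; their median interaction was 0.20. Their median effect was -0.028 at 96 h and 0.069 at 240 h. Mdm2, the ubiquitin ligase that p53 induces and that degrades p53, was at 182, 187 and 181 against 169, 169 and 176 CPM at 96 h and at 224, 228 and 208 against 285, 291 and 315 CPM at 240 h. The effect was -0.10 and uncalled at 96 h and 0.44 at 240 h (interaction 0.53, SE 0.059, adjusted p = 4.79e-06). Ccng1, cyclin G1, moved from 0.0048 to 0.36 with 1185, 1184 and 1235 CPM under WM-8014 at 240 h against 929, 938 and 945 CPM in the controls (interaction 0.35, SE 0.049, adjusted p = 5.2e-05). Perp, a membrane protein of desmosomes and cell death, had the largest interaction of the 3, 0.93 (SE 0.15, adjusted p = 0.00028). The 1 member called lower, Ckap2, is also a mitotic spindle gene. Without culture 7 the count called higher was 6, and without the 2 WM-2474 libraries of 96 h it was 3.

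Several genes of the actin cytoskeleton and of cell adhesion reversed: they were slightly lower with WM-8014 at 96 h and higher at 240 h. Vcl (chr14:20929383-21033676), vinculin, which ties integrin adhesions to actin, stood at 918, 928 and 952 against 848, 867 and 863 CPM at 96 h. At 240 h it stood at 1192, 1229 and 1197 against 1556, 1566 and 1423 CPM. The compounds did not overlap at either time, and their order switched (effect -0.12, then 0.33; interaction 0.45, SE 0.052, adjusted p = 8.12e-06). Pdlim5, a scaffold of actin fibres, went from 267, 269 and 274 against 251, 251 and 247 CPM to 367, 374 and 387 against 505, 527 and 480 CPM (interaction 0.54, SE 0.051, adjusted p = 1.2e-06). Tes (testin), a protein of focal adhesions, had an interaction of 0.52 (SE 0.060), with an effect of -0.14 at 96 h and 0.38 at 240 h. Ptp4a3, a phosphatase, had -0.20 at 96 h and 0.41 at 240 h (interaction 0.61, SE 0.066, adjusted p = 3.82e-06).

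The list of contractile and myofibroblast genes was called higher for 9 of 21 and lower for 0 of 21 by edgeR, while the unadjusted p was under 0.05 for 12 in either direction; DESeq2 called 10 and limma voom 8. The share called higher was 42.9%, against 5.15% of all genes. The median effect of the list was -0.13 at 96 h and 0.077 at 240 h. Myl9, the regulatory light chain of smooth muscle myosin, was at 351, 362 and 367 against 319, 326 and 315 CPM at 96 h and at 716, 758 and 724 against 856, 866 and 807 CPM at 240 h (interaction 0.37, SE 0.050, adjusted p = 3.99e-05). The level rose with time under both compounds, and the order of the compounds switched. Tpm2, a tropomyosin, was not called at 96 h (559, 539 and 556 against 577, 582 and 574 CPM) and was higher at 240 h (845, 886 and 847 against 1257, 1270 and 1110 CPM; interaction 0.43, SE 0.059, adjusted p = 5.15e-05). Des, the muscle intermediate filament desmin, grew from 0.54 to 1.61, with 106, 90.3 and 81.7 CPM under WM-8014 at 240 h and 19.2 to 34.2 CPM in all other libraries (interaction 1.07, SE 0.15, adjusted p = 0.00096).

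Other actin genes only lost an early deficit. Actg1, cytoplasmic gamma actin, was at 417, 412 and 425 against 365, 375 and 363 CPM at 96 h and at 455, 483 and 470 against 504, 498 and 484 CPM at 240 h, where the difference was not called (interaction 0.26, SE 0.046, adjusted p = 0.00064). Tpm1 likewise went from -0.29 to 0.055 (interaction 0.34, SE 0.065, adjusted p = 0.00129). Acta2, smooth muscle actin and the usual mark of myofibroblasts, went from -0.28 to -0.033: 2625, 2658 and 2741 against 2180, 2276 and 2176 CPM at 96 h, and 5247, 5646 and 5566 against 5483, 5630 and 4976 CPM at 240 h, where the groups overlapped (interaction 0.24, SE 0.061, adjusted p = 0.0115). The adjusted p of Tpm1 was 0.0757 without culture 5. That of Acta2 was 0.201 without culture 5, 0.0563 without culture 6 and 0.165 without the 2 WM-2474 libraries of 96 h.

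Vcl and Myl9 are known targets of serum response factor, which binds the CArG box, and their promoters are shown because both members reversed. Capitals mark the CArG box, searched by that name as 2 C, 6 letters of A or T, and 2 G on either strand; Vcl lies at chr14:20929148-20929447 and Myl9 at chr2:156775214-156775513, both on the plus strand (RefSeq, GRCm38.p6, 250 bases before to 50 after the start).
Vcl promoter: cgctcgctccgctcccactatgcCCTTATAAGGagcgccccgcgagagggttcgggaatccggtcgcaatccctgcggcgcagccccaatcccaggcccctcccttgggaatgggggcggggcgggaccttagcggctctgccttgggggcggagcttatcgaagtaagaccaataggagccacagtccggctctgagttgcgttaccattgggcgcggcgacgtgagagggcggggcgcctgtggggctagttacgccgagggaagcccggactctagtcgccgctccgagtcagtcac
Myl9 promoter: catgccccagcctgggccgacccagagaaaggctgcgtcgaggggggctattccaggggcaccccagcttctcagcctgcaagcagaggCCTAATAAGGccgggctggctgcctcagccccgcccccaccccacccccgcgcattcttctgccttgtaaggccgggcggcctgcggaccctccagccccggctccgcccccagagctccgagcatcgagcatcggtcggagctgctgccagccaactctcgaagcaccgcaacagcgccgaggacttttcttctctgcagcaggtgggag
Of the contractile genes called higher, 8 had 9 promoters in the table, and 55.6% of these held a CArG box, against 33.3% of the promoters of all contractile genes tested and 1.34% of 13638 promoters of tested genes. These shares rest on few promoters, and again the motif was picked after the values were known.

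Counts of contractile genes called higher were 5 to 11 when 1 library or 1 culture was left out, and 5 without the 2 WM-2474 libraries of 96 h; the 5 came without culture 5 and without culture 6. Markers of skeletal muscle moved beside this group. The 13 listed markers, led by Acta1, summed to 116 to 130 CPM with WM-2474 and 122 to 153 CPM with WM-8014 at 96 h, and to 228 to 318 CPM and 418 to 630 CPM at 240 h. Of them 10 were under 1 CPM in every library, and Myf6 had 0 reads. None of the 3 tested was called in the interaction by the main edgeR fit or limma voom. In the edgeR fit 1 had an unadjusted p under 0.05. DESeq2 called 1, and edgeR with a block for the culture number called 1 higher. Pericyte and smooth muscle markers summed to 803 to 836 CPM with WM-2474 and 827 to 872 CPM with WM-8014 at 240 h. The part of these cells in the contractile genes was not tested.

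The caveolin genes, whose proteins build the caveolae of the plasma membrane, grew upward. Cav1 was at 550, 556 and 552 against 597, 620 and 587 CPM at 96 h and at 926, 931 and 955 against 1368, 1382 and 1379 CPM at 240 h (interaction 0.43, SE 0.045, adjusted p = 2.74e-06). Cav2 was at 47.4, 42.5 and 46.0 against 52.7, 58.7 and 48.9 CPM and then at 63.7, 66.6 and 68.5 against 125, 126 and 119 CPM (interaction 0.66, SE 0.078, adjusted p = 9.83e-06). Myo10, the myosin of filopodia, was not called at 96 h (136, 141 and 143 against 135, 142 and 135 CPM) and was higher at 240 h (153, 148 and 156 against 224, 208 and 208 CPM; interaction 0.52, SE 0.054, adjusted p = 2.81e-06). Mbnl1, a regulator of splicing, was flat with time under WM-2474 (232, 214 and 217, then 214, 211 and 219 CPM) and rose under WM-8014 (267, 271 and 280, then 381, 362 and 366 CPM; interaction 0.48, SE 0.051, adjusted p = 3.3e-06).

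Targets of YAP and TEAD, the transcription factors that respond to cell tension and density, were called higher for 6 of 20 and lower for none. Among all genes 5.15% were called higher and 5.53% lower. Ccn1, a secreted matrix protein, was at 655, 618 and 608 against 539, 537 and 491 CPM at 96 h and at 710, 816 and 790 against 896, 984 and 850 CPM at 240 h. Its groups did not overlap at either time and it reversed (interaction 0.50, SE 0.087, adjusted p = 0.00207). For the list, 0 called lower compares with 9 genes at an unadjusted p under 0.05 in either direction, 8 called in all by DESeq2 and 6 by limma voom. The count called higher was 2 without culture 5 and 1 without the 2 WM-2474 libraries of 96 h.

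**Figure D4:**
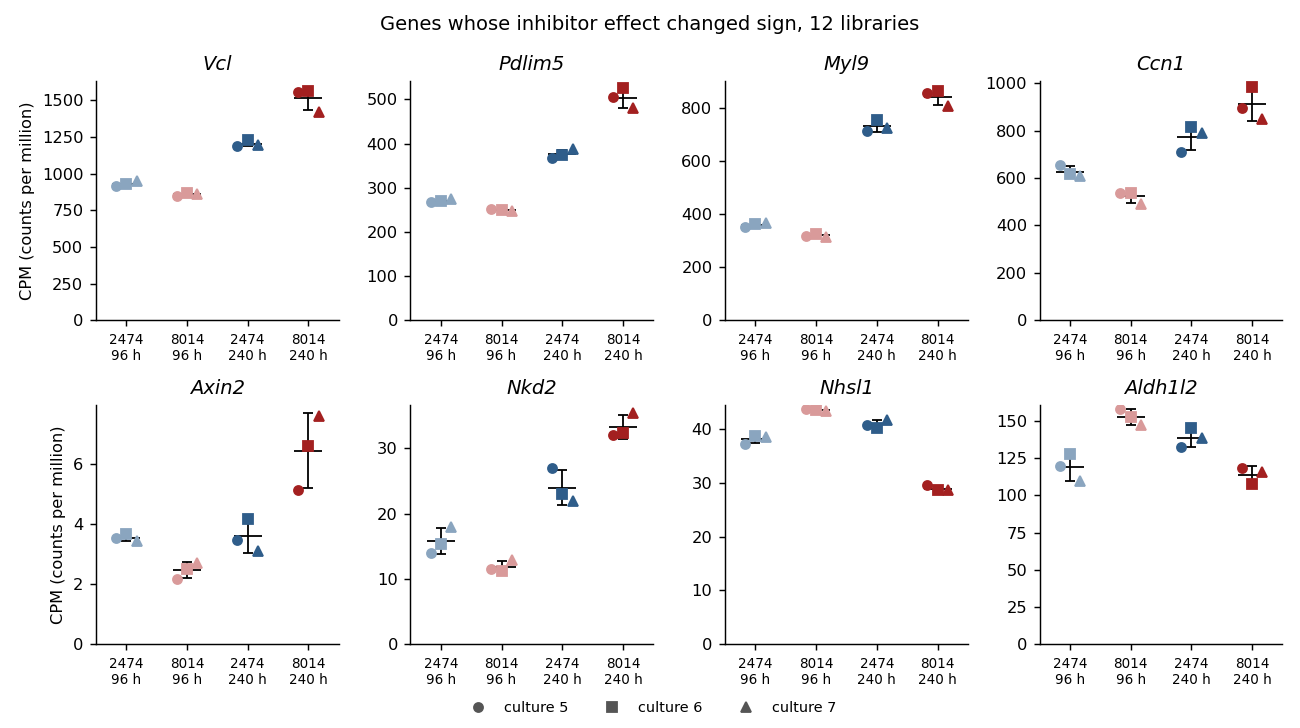
CPM of 8 genes of the reversed class in the 12 libraries, with 1 symbol per culture, a bar at the group mean and whiskers of 1 SD (3 cultures). In Vcl, Pdlim5, Myl9, Ccn1, Axin2 and Nkd2 the WM-8014 mean lies below the WM-2474 mean at 96 h and above it at 240 h; in Nhsl1 and Aldh1l2 the order is the opposite.

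In the Wnt pathway 6 of 42 genes were called higher and 5 lower, against 5.15% and 5.53% of all genes. Axin2 (chr11:108917828-108950783), a scaffold of the beta-catenin destruction complex and a feedback target of Wnt signalling, had the largest interaction of the reversed genes named here. It was at 3.53, 3.69 and 3.44 against 2.17, 2.52 and 2.71 CPM at 96 h and at 3.48, 4.18 and 3.12 against 5.14, 6.60 and 7.62 CPM at 240 h. The edgeR test of the 96 h effect alone, not of the interaction, gave an adjusted p of 0.046. The class of Axin2 thus rests on a 96 h call close to the threshold of 0.05, at a low level. The control cultures held their level while the WM-8014 cultures rose (interaction 1.38, SE 0.23, adjusted p = 0.000416). Nkd2, another Wnt feedback inhibitor, was at 14.02, 15.3 and 17.9 against 11.5, 11.2 and 12.8 CPM at 96 h and at 27.0, 22.9 and 22.0 against 32.1, 32.4 and 35.4 CPM at 240 h (interaction 0.93, SE 0.13, adjusted p = 8.22e-05). Among receptors the direction differed: Fzd7 had an interaction of 0.48 (SE 0.069, adjusted p = 0.000145) and Fzd6 of -0.58 (SE 0.091, adjusted p = 0.000197). Fzd6 rose with time under WM-2474, from 30.8, 28.8 and 28.5 to 34.6, 35.04 and 35.8 CPM, and fell under WM-8014, from 22.5, 21.4 and 20.8 to 16.9, 16.4 and 18.8 CPM. The list's count called higher was 3 without culture 6. The count called lower was 3 without culture 5 or 7 of WM-2474 at 96 h, without culture 5 or 6 of WM-8014 at 240 h, without culture 5 or culture 7 in every group, and with DESeq2; it was 2 without culture 6 in every group and without the 2 WM-2474 libraries of 96 h.

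TGF-beta and BMP genes were called higher for 8 of 42 (19%) and lower for none by the main edgeR fit, against 5.15% and 5.53% of all genes. At an unadjusted p under 0.05 there were 16 in either direction. In all, DESeq2 called 12 and limma voom 10. Fst, follistatin, which binds and blocks activins, reversed: it was at 201, 184 and 215 against 144, 162 and 173 CPM at 96 h and at 178, 170 and 188 against 250, 250 and 252 CPM at 240 h (interaction 0.82, SE 0.093, adjusted p = 9.62e-05). Its level rose with time under WM-8014 and not under WM-2474. Bmpr1b, a type I BMP receptor, was not called at 96 h (7.05, 7.67 and 6.66 against 8.49, 8.05 and 6.76 CPM) and was higher at 240 h (6.00, 6.98 and 6.98 against 13.0, 15.8 and 12.5 CPM; interaction 0.92, SE 0.17, adjusted p = 0.000874). The list's count was 13 without culture 7 of WM-8014 at 240 h and 4 without the 2 WM-2474 libraries of 96 h.

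PDGF and FGF signalling genes were called higher for 5 of 23 and lower for 2 (30.4% in all, against 10.7% of all genes). These counts ran from 3 to 6 and from 1 to 2 when 1 library or culture was left out. Pdgfa, a ligand of the platelet-derived growth factor receptors, stood at 20.8, 27.4 and 27.3 against 24.4, 26.1 and 25.1 CPM at 96 h and at 27.7, 27.8 and 27.5 against 49.4, 47.2 and 51.0 CPM at 240 h (interaction 0.86, SE 0.10, adjusted p = 1.02e-05). The interaction was 0.55 without the 2 WM-2474 libraries of 96 h. Pdgfra, the receptor that PDGF-A binds and a marker of fibroblasts, had an interaction of the opposite sign, with 299, 302 and 298 against 340, 300 and 347 CPM at 96 h and 220, 193 and 203 against 154, 150 and 153 CPM at 240 h (interaction -0.57, SE 0.071, adjusted p = 3.77e-05). At 96 h its groups overlapped, and at 240 h they did not. Fgfrl1, a receptor of the FGF family, was called higher like Pdgfa, with an interaction of 0.44 (SE 0.087, adjusted p = 0.00171, and 0.131 without the 2 WM-2474 libraries of 96 h). Igf2r, the receptor that clears IGF2, rose with time under WM-2474 (507, 519 and 503 to 619, 600 and 611 CPM) and fell under WM-8014 (517, 518 and 522 to 465, 440 and 490 CPM), an interaction of -0.42 (SE 0.051, adjusted p = 1.3e-05).

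Igf2r is also an imprinted gene, expressed from 1 parental copy, and 2 others of the 27 imprinted genes tested were called lower, Slc38a4 and Peg3. Slc38a4 (chr15:96994816-97055956), an amino acid transporter, had the smallest adjusted p of all genes tested. It was at 133, 134 and 132 against 98.0, 91.6 and 98.1 CPM at 96 h and at 82.0, 79.6 and 87.2 against 27.4, 30.3 and 25.6 CPM at 240 h (effect -0.47, then -1.56; interaction -1.09, SE 0.073, adjusted p = 1.66e-08). Peg3, a zinc finger protein, was at 256, 250 and 262 against 192, 172 and 200 CPM and then at 157, 133 and 139 against 67.4, 64.2 and 72.0 CPM (interaction -0.63, SE 0.094, adjusted p = 0.000757). Both fell with time under both compounds, further under WM-8014. With 1 imprinted gene called higher as well, the shares called, 3 and 1 of 27, stand beside 5.53% and 5.15% of all genes, and without culture 7 of WM-8014 at 240 h 2 were called higher and 5 lower. The 1 called higher was 0 without culture 6 or without the 2 WM-2474 libraries of 96 h.

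Basement membrane genes were called higher for 2 of 22 and lower for 3, and elastic fibre and crosslinking genes for 5 and 6 of 22. These are 22.7% and 50% of the lists, against 10.7% of all genes. The elastic fibre counts ran from 1 to 4 higher and from 2 to 8 lower when 1 library or culture was left out. Col15a1 (chr4:47207655-47313167), collagen XV of the basement membrane zone, was at 8.08, 11.5 and 11.8 against 7.47, 8.25 and 9.199 CPM at 96 h. At 240 h it was at 65.7, 66.1 and 68.0 CPM with WM-2474 and at 11.8, 12.7 and 15.8 CPM with WM-8014. The control cultures thus rose by 2.61 on the log2 scale and the WM-8014 cultures by 0.70, an interaction of -1.90 (SE 0.17, 95% interval -2.25 to -1.55, adjusted p = 2.26e-06). Fbln1, fibulin 1 of elastic fibres, was lower with WM-8014 at both times: 84.1, 79.9 and 83.3 against 58.5, 57.3 and 60.6 CPM at 96 h and 71.6, 59.5 and 67.6 against 26.6, 26.2 and 27.2 CPM at 240 h (interaction -0.82, SE 0.081, adjusted p = 1.44e-06). Ltbp2, a protein of the same fibres that binds fibrillin, went the other way, with 306, 329 and 288 against 448, 515 and 426 CPM at 96 h and 456, 452 and 407 against 1160, 1168 and 1060 CPM at 240 h (interaction 0.77, SE 0.11, adjusted p = 0.00112, and 0.0588 without culture 5). Fbn1, fibrillin 1, was higher with WM-8014 at 96 h (1440, 1501 and 1491 against 1885, 1965 and 1926 CPM) and not called at 240 h (2359, 2270 and 2219 against 2419, 2252 and 2577 CPM; interaction -0.30, SE 0.059, adjusted p = 0.00176).

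Endothelial markers had a summed level, led by Flt1, that was also lower with WM-8014 at 240 h. They summed to 43.9 to 50.8 CPM with WM-2474 and 32.6 to 36.1 CPM with WM-8014 at 96 h, and to 76.4 to 102 CPM and 44.0 to 48.1 CPM at 240 h. The median interaction of the 6 markers tested was 0.42, of the opposite sign to Col15a1, and that of Flt1 was -0.55 (adjusted p = 0.0768). Of 12 markers 7 were under 1 CPM in all libraries. None of the 6 tested was called in the interaction by the main edgeR fit or limma voom, with 1 at an unadjusted p under 0.05. DESeq2 called 1, and edgeR with a block for the culture number called 1 lower. The part of endothelial cells in Col15a1 was not tested.

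Collagen and interstitial matrix genes were called higher for 4 of 33 and lower for 2 (18.2% in all, against 10.7% of all genes). Matrix proteases and their inhibitors were called higher for 5 of 24 and lower for 2 (29.2%). The median interactions of these lists were -0.097 and -0.11. Vcan (-0.60, call lost without culture 7) and Adamts10 (-0.45) were among those called lower. Matrix genes that rose included secreted regulators. Thbs1, thrombospondin 1, a matrix glycoprotein that can activate TGF-beta, did not differ beyond the threshold at 96 h (9708, 10508 and 9990 against 10243, 10607 and 10049 CPM) and rose further with WM-8014 by 240 h (17214, 18024 and 17613 against 24422, 24563 and 24687 CPM; interaction 0.45, SE 0.053, adjusted p = 1.02e-05). Timp3, an inhibitor of matrix proteases, was at 1019, 1148 and 1103 against 1174, 1362 and 1258 CPM at 96 h and at 2462, 2522 and 2549 against 4262, 4513 and 4923 CPM at 240 h (interaction 0.65, SE 0.084, adjusted p = 0.000163). Timp2 had an interaction of 0.35 (SE 0.056, adjusted p = 0.000201). Both inhibitors were already higher with WM-8014 at 96 h. Genes of the senescence secretome were called for 25.8% of those tested, against 10.7% of all genes. Igfbp5 of that list was called lower, with an interaction of -1.19, and lost its call without culture 7. Of 31 tested genes of the senescence secretome, 6 were called higher and 2 lower; the count called higher was 3 without culture 5 of WM-8014 at 240 h, 10 without culture 7 of WM-8014 at 240 h, and 1 without the 2 WM-2474 libraries of 96 h.

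Of 33 Hox genes 1 was called higher and 2 lower (9.09% in all), and of 71 other developmental transcription factors 6 and 3 (12.7%), against 10.7% of all genes tested. Hoxc13 (chr15:102921131-102928814), a Hox gene of the posterior body and skin appendages, was at 1.39, 1.23 and 0.758 against 5.37, 6.48 and 4.26 CPM at 96 h and at 0.697, 0.889 and 0.594 against 11.8, 13.2 and 13.9 CPM at 240 h. It fell slightly without a call under WM-2474 and rose under WM-8014 (effect 2.47, then 4.15; interaction 1.68, SE 0.34, 95% interval 0.98 to 2.38, adjusted p = 0.00211). Hoxd8 reversed to lower: 16.4, 13.8 and 14.3 against 20.1, 15.9 and 18.2 CPM at 96 h, with overlapping groups, and 21.8, 21.1 and 24.0 against 16.1, 14.9 and 16.5 CPM at 240 h (interaction -0.80, SE 0.13, adjusted p = 0.000194). Osr1, a zinc finger factor of limb and body wall mesenchyme, had an interaction of -0.62 (SE 0.084, adjusted p = 5.29e-05), with 39.0, 37.4 and 37.3 CPM under WM-8014 at 240 h against 70.7, 59.9 and 60.8 CPM. The count of 6 developmental factors called higher was 3 without culture 7 of WM-2474 or culture 5 or 6 of WM-8014 at 96 h, or without culture 6 or 7 of WM-2474 or culture 6 of WM-8014 at 240 h, 2 without culture 5 of WM-8014 at 240 h or without culture 5 in every group, and 1 without culture 6 in every group, without the 2 WM-2474 libraries of 96 h or after thinning every library to the lowest total. The 3 called lower were 1 without culture 6 in every group or without those 2 libraries, and the 2 Hox genes called lower were 1 without any 1 culture number or without those 2 libraries.

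Among the 10 lowest interactions of the named genes by the rule on size were 3 membrane proteins whose calls held in every alternative. Adcyap1r1 (chr6:55451501-55501455), the receptor of the neuropeptide PACAP, kept its level under WM-2474 (68.7, 60.2 and 68.6 to 57.4, 62.2 and 72.2 CPM) and fell under WM-8014 (37.0, 35.1 and 37.1 to 15.0, 12.2 and 13.8 CPM; interaction -1.40, SE 0.13, adjusted p = 7.95e-06). Tenm4, a teneurin adhesion protein, was at 21.1, 18.4 and 15.1 against 16.7, 15.3 and 13.2 CPM at 96 h, overlapping, and at 27.2, 21.6 and 20.3 against 5.65, 6.26 and 6.81 CPM at 240 h (interaction -1.65, SE 0.21, adjusted p = 0.000168). Lrrn3, a leucine-rich repeat membrane protein, had an interaction of -1.51 (SE 0.19, adjusted p = 1.47e-05). Axon guidance genes were called higher for 7 of 51 and lower for 3, and the counts were 2 and 1 without the 2 WM-2474 libraries of 96 h; without culture 6, 2 were called higher. With all libraries 19.6% of the axon guidance genes were called, against 10.7% of all genes. Among the axon guidance genes Ntn4, a netrin, had an interaction of 0.47 (SE 0.077). Ephb2, a receptor of membrane-bound ephrins, rose slightly with time under WM-2474 (88.2, 84.3 and 78.8 to 93.1, 88.8 and 94.1 CPM) and fell under WM-8014 (70.4, 69.7 and 62.3 to 46.5, 42.2 and 46.4 CPM; interaction -0.74, SE 0.077, adjusted p = 2.76e-06). Of 8 neuron and glia markers tested 3 were called lower, among them Gap43, a growth cone protein, at 26.9, 27.6 and 26.4 against 21.7, 22.8 and 24.6 CPM at 96 h and 21.4, 16.9 and 18.5 against 8.27, 8.75 and 8.31 CPM at 240 h (interaction -0.92, SE 0.12, adjusted p = 2.33e-05). Mbp and Sox10 were called lower as well, with interactions of -0.99 (SE 0.18) and -1.28 (SE 0.33). The call of Sox10 was lost without culture 6 or culture 7 in every group, and without culture 6 of WM-8014 at 240 h. Over the alternatives the interaction of Mbp ran from -1.16 to -0.74. The 8 markers tested had a median interaction of -0.61, and their median effect was -0.021 at 96 h and -0.76 at 240 h. Of them 37.5% were called, against 10.7% of all genes. Summed over 14 markers the neural list was at 128 to 150 CPM with WM-2474 and 143 to 161 CPM with WM-8014 at 96 h. At 240 h it was at 156 to 170 and 172 to 180 CPM. This sum, led by Tubb3, did not fall. The part of neural cells in these genes was not tested.

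In the opposite sense, 18 genes reversed from higher with WM-8014 at 96 h to lower at 240 h. Nhsl1 (chr10:18317665-18533892), a regulator of actin branching at the cell edge, was at 37.2, 38.7 and 38.5 against 43.7, 43.5 and 43.4 CPM at 96 h and at 40.7, 40.2 and 41.7 against 29.6, 28.6 and 28.6 CPM at 240 h (interaction -0.69, SE 0.068, adjusted p = 1.44e-06). Aldh1l2, the mitochondrial 10-formyltetrahydrofolate dehydrogenase, was at 120, 128 and 109 against 158, 153 and 147 CPM and then at 132, 145 and 139 against 119, 107 and 116 CPM (interaction -0.66, SE 0.076, adjusted p = 1.56e-05). It rose with time under WM-2474 and fell under WM-8014. Matn2, a matrix adaptor protein, had effects of 0.20 and -0.29 (interaction -0.49, SE 0.073, adjusted p = 0.00012), and Plat, tissue plasminogen activator, of 0.31 and -0.14 (interaction -0.45, SE 0.069, adjusted p = 0.00019).

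Targets of ATF4, the transcription factor of amino acid shortage, were called lower for 8 of 27 (6 grew downward, 2 had shrunk from higher) and higher for none by edgeR (17 in either direction at an unadjusted p under 0.05; 7 called in all by DESeq2 and 9 by limma voom). The share called lower was 29.6%, against 5.53% of all genes. With a block for the culture number 1 target was called higher. The median effect of the list was 0.11 at 96 h and -0.092 at 240 h. Slc7a5, the large neutral amino acid transporter, rose with time under WM-2474 (245, 232 and 243.3 to 277, 296 and 311 CPM) and fell under WM-8014 (204, 207 and 202 to 178, 167 and 192 CPM; interaction -0.49, SE 0.065, adjusted p = 4.76e-05). Atf5, a relative of ATF4, was higher with WM-8014 at 96 h (354, 347 and 335 against 424, 409 and 409 CPM) and not called at 240 h (540, 513 and 522 against 484, 464 and 530 CPM; interaction -0.36, SE 0.058, adjusted p = 0.000314). Trib3, a pseudokinase induced by ATF4, had an interaction of -0.51 (SE 0.090, adjusted p = 0.000977). The list's count was 3 without culture 6, 5 without culture 7 and 3 without the 2 WM-2474 libraries of 96 h.

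Genes of fatty acid synthesis and desaturation were called higher for 2 of 17 and lower for 5, and PPAR targets for 2 and 4 of 24. These are 41.2% and 25% of the lists, against 10.7% of all genes. With 1 library or culture left out the counts ran from 1 to 3 and 3 to 6, and from 0 to 4 and 1 to 5. Scd2 and Fads1, desaturases of fatty acids, fell with time under both compounds and further under WM-8014. Scd2 was at 3192, 3388 and 3317 against 2752, 2749 and 2853 CPM at 96 h and at 1810, 1872 and 1916 against 1270, 1277 and 1278 CPM at 240 h (interaction -0.30, SE 0.049, adjusted p = 0.000239). Fads1 had an interaction of -0.31 (SE 0.048, adjusted p = 0.000146). Fads3, of the same family, was higher with WM-8014 and grew upward, with 163, 177 and 175 against 207, 215 and 203 CPM at 96 h and 170, 181 and 182 against 279, 274 and 280 CPM at 240 h (interaction 0.37, SE 0.055, adjusted p = 0.000107). Lpl, lipoprotein lipase, was at 54.2, 47.6 and 56.4 against 62.2, 49.2 and 59.5 CPM at 96 h, overlapping, and at 40.7, 34.8 and 39.7 against 18.8, 18.4 and 21.9 CPM at 240 h (interaction -1.06, SE 0.14, adjusted p = 0.000454). Pparg, the fat cell regulator, and Pdk4, a kinase that limits glucose oxidation, were called higher, at 0.86 (SE 0.17) and 0.84 (SE 0.19); without culture 6 their adjusted p was 0.0525 and 0.12, and that of Pdk4 was 0.164 without the 2 WM-2474 libraries of 96 h.

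Hsd17b7, an enzyme of cholesterol synthesis, reversed to higher (effects -0.14 and 0.29; interaction 0.43, SE 0.055, adjusted p = 2.33e-05), and 1 other of the 25 cholesterol genes was called, lower. Idh2, the mitochondrial isocitrate dehydrogenase, fell from 129, 126 and 132 to 90.2, 91.0 and 94.3 CPM with WM-2474 and from 113, 112 and 114 to 53.9, 52.5 and 49.2 CPM with WM-8014 (interaction -0.64, SE 0.057, adjusted p = 6.94e-07). Ctsd, the lysosomal protease cathepsin D, had an interaction of 0.36 (SE 0.050, adjusted p = 4.83e-05), with 1429, 1416 and 1474 against 1020, 986 and 973 CPM at 240 h. Of the 42 lysosome genes 5 were called higher and none lower in the main edgeR fit (11.9% in all, near the 10.7% of all genes). In that fit 15 in either direction had an unadjusted p under 0.05. DESeq2 and limma voom called 5 and 6 in all. With a block for the culture number edgeR called 6 higher and 1 lower, and with 1 library or culture left out up to 2 were called lower. The count called higher was 3 without culture 7 of WM-2474 at 96 h or culture 5 of WM-8014 at 240 h. It was 2 without culture 6 of WM-2474 at 240 h, and 1 without culture 6 or 7 in every group.

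**Figure D5:**
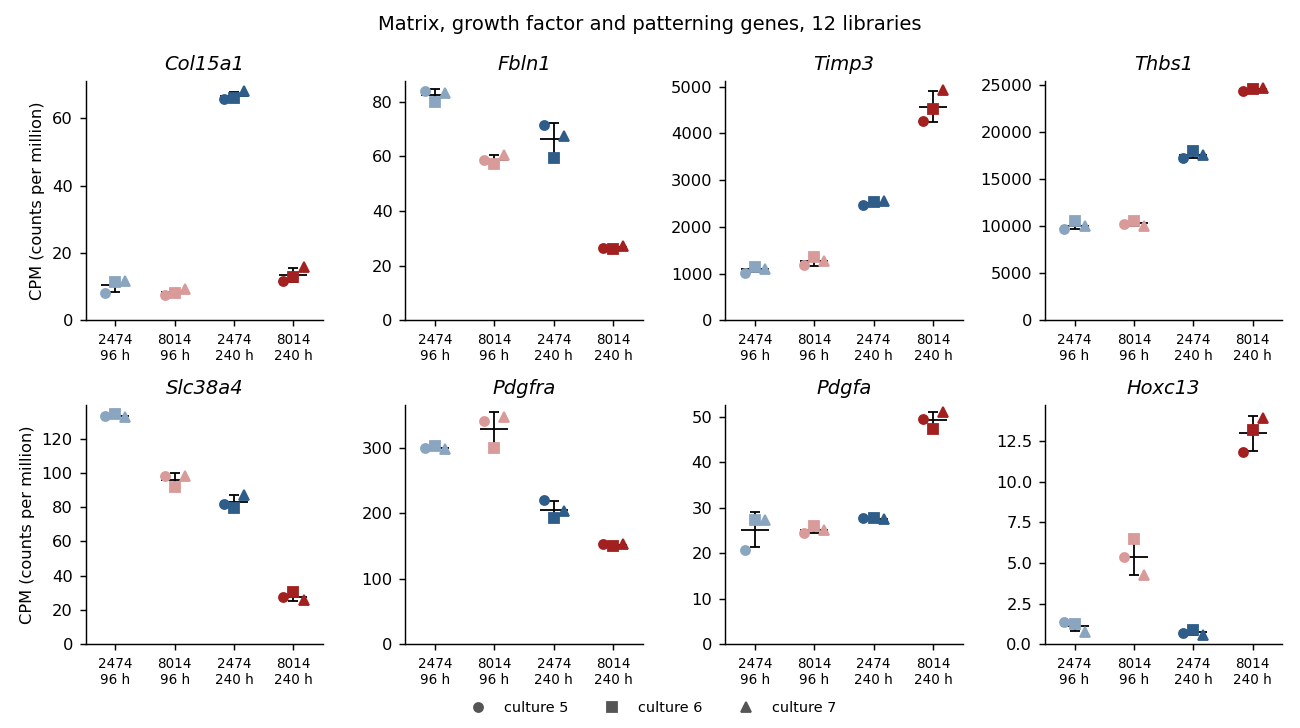
CPM of 8 genes in the 12 libraries, with 1 symbol per culture, a bar at the group mean and whiskers of 1 SD (3 cultures). Col15a1 rises from 8.08 to 11.8 CPM at 96 h to 65.7 to 68.0 CPM at 240 h under WM-2474 and to 11.8 to 15.8 CPM under WM-8014; Pdgfa and Hoxc13 are highest, and Fbln1, Slc38a4 and Pdgfra lowest, in the WM-8014 cultures at 240 h.

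The genes nearest to the inhibitor's targets did not pass. Kat6a stood at 90.0, 95.9 and 93.8 against 89.8, 90.4 and 87.3 CPM at 96 h and at 94.8, 88.8 and 94.97 against 80.2, 80.5 and 80.6 CPM at 240 h (interaction -0.14, 95% interval -0.26 to -0.023, adjusted p = 0.125). Kat6b was higher with WM-8014 at both times, at 48.6, 48.7 and 50.9 against 59.9, 55.4 and 55.8 CPM and at 49.5, 47.2 and 48.5 against 59.6, 55.3 and 62.5 CPM (interaction 0.084, 95% interval -0.066 to 0.23, adjusted p = 0.538). Of the 14 MYST enzymes and KAT6 complex partners none was called by edgeR, DESeq2 or limma voom, and 2 had an unadjusted p under 0.05. Of 18 Notch genes and 14 antigen presentation genes none was called in the main edgeR fit of all 12 libraries. In that fit 5 and 4 had an unadjusted p under 0.05. With a block for the culture number 3 Notch genes were called lower. DESeq2 called 3 and 0, and limma voom 0 and 1. With 1 library or culture left out up to 1 Notch gene was called higher and up to 2 lower, and up to 2 antigen presentation genes higher; without the 2 WM-2474 libraries of 96 h 1 Notch gene was called lower. Ribosomal protein genes (1 higher and 3 lower of 56) and oxidative phosphorylation genes (1 and 1 of 47) were called at or below the 10.7% of all genes.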

How the data were processed

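RNA-seq of 12 mouse embryonic fibroblast libraries was analysed from the deposited table of whole-number read counts per gene, for which the submitters' processing notes name featureCounts and the build mm10. Aligner, annotation and strand setting: not given in the sources used here. Of 27179 gene identifiers, 25275 matched a symbol. Total counts ran from 10147466 to 45903190 per library.

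Counts were fitted with edgeR 4.0.16 (R 4.3.3): TMM scaling, the filterByExpr filter, 1 mean per group and the robust quasi-likelihood F test of the interaction, with Benjamini-Hochberg adjustment over 14136 genes and a threshold of 0.05. SEs were taken from the fold change and F. The p-values measure the spread between 3 cultures a group. On simulated counts for the interaction over 13962 genes, 62% of changes of 0.5 and 83% of changes of 1 (log2) were recovered, with 4 false calls. No 2 libraries agreed within sampling noise. Alternatives were other scalings, DESeq2 1.42.0, limma voom 3.58.1, other filters, a block for the culture number, libraries left out and thinning.

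Genes were named by rule: a fixed set with the Kat6 and arrest genes, the 10 highest and 10 lowest called interactions with a mean of at least 1 log2 CPM and the same sign in all 3 cultures, up to 5 of the smallest p in each class and up to 3 in each list. A further 13 genes (such as Plk1, Acta2 and Cav2) were named after their values were seen. Not every gene the rule names is described: those whose calls were lost in over 3 alternatives were left out, and others were passed over after their values were seen. The lists, the contrast and the genes were chosen with earlier results of these data known. Promoters are from RefSeq. The result for 1 further gene is not reported here.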

Additional observations from a re-analysis of the deposited data

Results flagged for a closer look

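The inhibitor effect differed between 96 h and 240 h, by the edgeR test of the difference itself, for 728 genes in the higher and 782 in the lower direction. Every called gene passes that same test, so only these counts and the named genes whose effect changed sign are listed here, as interactions on the log2 scale.

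Those that went from lower to higher were Axin2 (1.38), Slc16a11, a monocarboxylate transporter family member (1.36), Nkd2 (0.93), Fst (0.82), Inhbb, an activin subunit (0.62), Ptp4a3 (0.61), Pdlim5 (0.54), Tes (0.52), Ccn1 (0.50), Btg2, a p53 target (0.49), Ntn4, a netrin (0.47), Vcl (0.45), Hsd17b7 (0.43), Myl9 (0.37) and Arhgef17 (0.25). Those that went from higher to lower were Hoxd8 (-0.80), Nhsl1 (-0.69), Aldh1l2 (-0.66), Dut (-0.50), Ndrg1, a hypoxia-induced gene (-0.50), Matn2 (-0.49) and Plat (-0.45).

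Of these 22 genes 4 lost the call of the interaction in an alternative. A change of sign also needs opposite calls at 96 h and at 240 h, which were not followed gene by gene. The reversed class held 62 genes in the main fit. It held 24, 27 and 31 without culture 5, 6 or 7 in every group, and 39 with DESeq2. The edgeR adjusted p of Arhgef17 was 0.0762 without culture 7 and 0.146 without the WM-2474 libraries of cultures 6 and 7 at 96 h; that of Inhbb was 0.0549 without culture 5 and 0.0740 without those libraries; that of Btg2 was 0.0885 without those libraries; and that of Ndrg1 was 0.199 without culture 5 and 0.0906 without those libraries.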

How the results depend on the processing

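All 1510 called genes had the same direction without the WM-2474 libraries of cultures 6 and 7 at 96 h, but 542 (35.9%) were still called, with fewer samples: 240 higher, 346 lower, 515 that grew, 28 that shrank and 11 that reversed. With 1 library or culture left out the counts ran from 315 to 802 higher, 409 to 801 lower, 635 to 1358 grown, 53 to 148 shrunk and 24 to 72 reversed. DESeq2 gave 39 and thinning to the smallest total gave 40 reversed genes; the cause was not tested. Over 161 named genes and 24 alternatives, 3550 of 3861 values kept direction and side of the threshold, 310 lost the call and 1 changed sign: Kat6b, not called, ran from -0.0042 (without replicate 7) to 0.1401 with 1 library or culture left out. Counted by gene, 84 of the 159 called named genes kept the call in every alternative. The call was lost in 1 to 3 alternatives for 49 genes and in over 3 for 26. The replicate block, with culture number as a term, gave 917 higher and 923 lower and kept 1491 of the 1510 calls. Culture numbers were not taken as pairs in the main fit, as the labels do not say what a number stands for. Only 9 of 18 same-numbered pairs correlated over 0.1. Yet all 12 libraries correlated best with their own number, and the mean correlation was 0.11 for same-numbered and -0.0551 for other pairs. Same-numbered cultures thus shared some variation that the main fit leaves out. Depth limits genes under 1 CPM, whose median SE was 0.53.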
